A study of Mus musculus with 12 samples.

Results

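The 38 genes described here are interferon-stimulated genes, chosen by name as a set of well-known type I interferon targets. Earlier results of these data were known at that choice. The genes were matched to the Ensembl identifiers of the count table through their GENCODE M21 symbols. All 38 were found among the 55487 identifiers, and all 38 passed the filter on low counts that left 16225 genes for testing. They were measured by bulk mRNA sequencing in 12 mouse melanoma tumors. In 6 tumors, of genotype BrafCA;Cdkn2af/f, the Arf6 gene was intact (wild type). In the other 6, of genotype BrafCA;Cdkn2af/f;Arf6f/f, it was removed (Arf6-null). All tumors thus carry the BrafCA allele, a conditional oncogenic allele of the kinase gene Braf, and floxed copies of Cdkn2a, a tumor suppressor locus, so their own effects cannot be read from this comparison. ARF6 is a small GTPase that directs membrane traffic between the cell surface and endosomes, and the comparison asks what its loss in the tumor does to gene expression. The submitters call the wild-type tumors matched, without saying in what or which tumor goes with which, and the replicate numbers used here follow the order of the records and pair nothing. The labels used here give neither the Cre driver nor the strain, age or sex of the mice. They also do not say whether each tumor came from its own mouse, and the p-values therefore reflect only how much these tumors vary.

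Type I interferons, the alpha family and interferon beta, are secreted when a cell detects foreign or misplaced nucleic acid. They bind a receptor made of IFNAR1 and IFNAR2, which activates the kinases JAK1 and TYK2. These lead to a complex called ISGF3, which contains STAT2 and IRF9 and binds a DNA element, the interferon-stimulated response element (ISRE), in the promoters of interferon-stimulated genes. Interferon gamma signals through another receptor and leads to binding at a different element, the gamma-activated site (GAS), and many genes answer to both. In tumors these genes are expressed by malignant cells and by infiltrating immune cells alike. In bulk RNA a change in the number of cells of a type cannot be told apart from a change in RNA per cell.

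The promoters of 27 of the 38 genes had an entry in the RefSeq promoter table (GRCm38.p6, 250 bases before to 50 after the start of transcription). The ISRE core was searched as GAAA followed by any 2 bases and another GAAA, on both strands with overlapping matches counted. It occurred in 13 of these 27 promoters (48.1%), against 3.99% of the 27025 genes with an entry. In a list of other interferon-stimulated genes it occurred in 23 of the 41 with an entry (56.1%). The windows below were picked from the members that hold a match, to show how the element is laid out. Each gives 200 bases 5′ to 3′ on the strand of the gene, with the ISRE core in capitals. The Isg15 window (chr4:156200819-156201018, minus strand) holds a run of 3 overlapping matches that begins 78 bases before the start, the Ifit1 window (chr19:34640689-34640888, plus strand) holds 2 separate matches on the opposite strand, at 104 and 85 bases, and the Bst2 window (chr8:71537473-71537672, minus strand) holds 2 overlapping matches from 130 bases.
Isg15: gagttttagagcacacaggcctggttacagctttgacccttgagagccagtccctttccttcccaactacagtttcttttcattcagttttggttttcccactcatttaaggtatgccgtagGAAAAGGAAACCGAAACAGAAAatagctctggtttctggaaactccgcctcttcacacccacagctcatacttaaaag
Ifit1: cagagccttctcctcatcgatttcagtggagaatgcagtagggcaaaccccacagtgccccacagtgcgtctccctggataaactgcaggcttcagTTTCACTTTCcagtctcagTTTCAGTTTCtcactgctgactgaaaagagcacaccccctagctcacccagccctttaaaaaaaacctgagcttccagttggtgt
Bst2: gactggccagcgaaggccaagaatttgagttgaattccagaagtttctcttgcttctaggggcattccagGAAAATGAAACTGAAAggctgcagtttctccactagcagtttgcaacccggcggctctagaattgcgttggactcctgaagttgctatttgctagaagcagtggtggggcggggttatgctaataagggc

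Ifit3 and Ifit3b, and likewise Oas1a and Oas1g, are close copies, and their windows are shown to let the copies be compared. The windows of Ifit3 (chr19:34583329-34583528, plus strand) and Ifit3b (chr19:34607757-34607956, plus strand) share an unbroken run of 119 bases with both ISRE cores in it. Those of Oas1a (chr5:120907526-120907725, minus strand) and Oas1g (chr5:120887614-120887813, minus strand) share a run of 56 bases that carries the element close to the start.
Ifit3: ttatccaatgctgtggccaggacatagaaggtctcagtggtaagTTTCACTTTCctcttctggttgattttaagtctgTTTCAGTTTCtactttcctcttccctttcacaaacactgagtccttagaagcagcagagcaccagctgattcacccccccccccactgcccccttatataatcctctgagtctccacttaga
Ifit3b: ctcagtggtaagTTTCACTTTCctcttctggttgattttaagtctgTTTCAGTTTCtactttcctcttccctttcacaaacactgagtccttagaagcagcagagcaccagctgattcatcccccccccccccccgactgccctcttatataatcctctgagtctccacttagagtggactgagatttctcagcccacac
Oas1a: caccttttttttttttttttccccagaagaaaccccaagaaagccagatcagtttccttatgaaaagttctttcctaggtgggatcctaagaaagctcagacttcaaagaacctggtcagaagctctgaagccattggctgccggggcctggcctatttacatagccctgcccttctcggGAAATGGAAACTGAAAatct
Oas1g: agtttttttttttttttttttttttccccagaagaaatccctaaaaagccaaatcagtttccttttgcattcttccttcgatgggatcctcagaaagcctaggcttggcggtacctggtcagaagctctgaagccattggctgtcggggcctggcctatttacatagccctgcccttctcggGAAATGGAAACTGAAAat

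Isg20 had the smallest p of the members, and its window (chr7:78913224-78913423, plus strand) has no match to the ISRE core. It holds one match to the GAS pattern TTCNNNGAA, with the letters TTCTTGGAA 73 bases before the start. That pattern occurred in 6 of the 27 promoters (22.2%) and in 9.55% of all genes with an entry. Among the 41 other interferon-stimulated genes with an entry it occurred in 2 (4.88%). A match is a string of letters and not a measured binding site.
Isg20: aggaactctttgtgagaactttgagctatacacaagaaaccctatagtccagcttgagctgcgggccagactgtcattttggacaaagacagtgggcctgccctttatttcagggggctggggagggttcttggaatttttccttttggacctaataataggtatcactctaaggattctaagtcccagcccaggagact

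Total counts per library lay between 22211738 and 30326419 for wild type and between 21007954 and 45688253 for Arf6-null tumors. Arf6 itself measured 84.2 to 147 CPM (counts relative to a common library total of 1000000) in wild type and 12.2 to 22.5 CPM in Arf6-null tumors, so every library matched its label (edgeR adjusted p = 0.000101, log2 fold change -2.60 ± 0.18 SE). Library numbers in the sample titles form separate blocks for the genotypes, so a difference in preparation and a difference in genotype cannot be told apart. A second number in the titles lay between 5526 and 7657 in wild type, apart from 20681 in replicate 5. In Arf6-null tumors it lay between 19836 and 20570, so this number too largely separates the genotypes. Summed CPM of 4 Y-linked genes was under 1 in 4 tumors (replicates 3, 5 and 6 of wild type, replicate 6 of Arf6-null), was 22.3 in replicate 1 of wild type, and lay between 147.5 and 248 in the other 7 tumors. Of 7 melanocyte markers 2 had enough reads to be tested: Mitf measured 18.6 ± 6.74 CPM (SD) in wild type, against 18.2 ± 8.78 CPM without Arf6, while Mlana had 0 counts in all 12 libraries and Dct and Tyrp1 had 1 count in each genotype.

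The interferon-stimulated genes were on average higher in Arf6-null than in wild-type tumors, but by less than the spread among wild-type tumors. A score was taken in each tumor as the mean log2 CPM of the 38 genes. It measured 3.16, 4.20, 3.87, 3.39, 5.59 and 5.46 in wild-type replicates 1 to 6, and 4.63, 5.16, 4.87, 5.27, 4.81 and 5.55 in Arf6-null replicates 1 to 6. Wild-type replicates 1 to 4 thus lay below every Arf6-null tumor, whereas replicate 5 lay above every Arf6-null tumor and wild-type replicate 6 above all but 1 of them. Means were 4.28 ± 1.03 and 5.05 ± 0.34 (SD, n = 6 each), a difference of 0.77. The wild-type SD alone exceeds that difference.

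**Figure D1:**
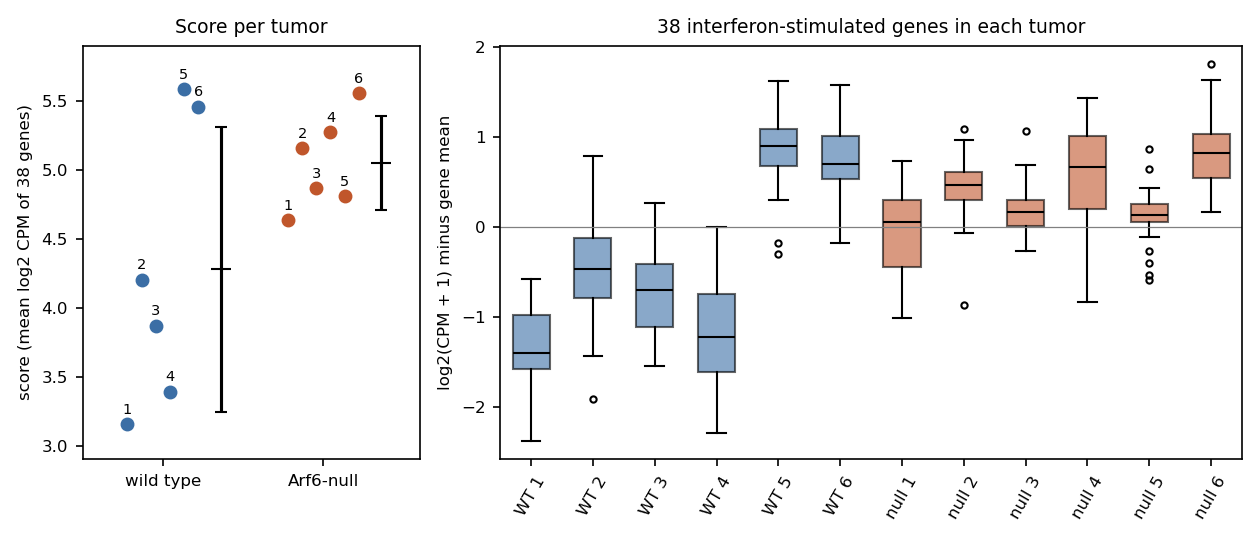
Left, the score of each tumor (mean log2 CPM of the 38 genes) with its replicate number, and the mean ± SD of the 6 tumors per genotype. Right, boxes over the 38 genes of log2(CPM + 1) minus the gene's mean over the 12 tumors; boxes span the quartiles, and whiskers reach at most 1.5 box lengths. Wild-type tumors 1 to 4 lie between 3.16 and 4.20 and tumors 5 and 6 at 5.59 and 5.46, while all Arf6-null tumors lie between 4.63 and 5.55.

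No member passed the threshold of an adjusted p of 0.05 in edgeR's quasi-likelihood test with Benjamini-Hochberg adjustment over all tested genes. That test called 1.15% of all tested genes, 0.586% as higher and 0.561% as lower in Arf6-null. At an unadjusted p under 0.05, 4 of the 38 (10.5%) were higher in Arf6-null, namely Isg20, Ifi27, Bst2 and Usp18, and 0 were lower. The same rule took 11.0% of all genes as higher and 12.4% as lower, so the share of members past it was near the background in the fit of all 12 tumors. It was not near it in every fit: 13 members (34.2%, against 11.7% of all genes as higher) passed as higher without wild-type replicate 5, 9 (23.7%, against 9.26%) without wild-type replicate 6, and 19 (50%, against 13.4%) in limma-voom over all 12 tumors. With a covariate for the macrophage score it was 26 (68.4%, against 10.7%), and with one for Y-linked expression 23 (60.5%, against 8.27%). In the 8 tumors with Y-linked expression, described further on, it was 28 (73.7%, against 9.76%), but those tumors leave out the wild-type pair highest in the 38 genes. In the other 18 fits 2 to 5 members passed as higher. It was 2 (5.26%) without wild-type replicate 1, 3 or 4 or Arf6-null replicate 4 or 6. All genes then passed as higher at 9.72%, 8.85%, 9.38%, 8.27% and 11.8%, in that order. The member share exceeded that of all genes with DESeq2 (13.2% against 7.1%), no filter (10.5% against 7.49%) and a covariate for the muscle score (7.89% against 6.12%). It also did without wild-type replicates 3, 4 and 5 (10.5% against 7.43%) and in the leukocyte fit given next. In the rest of these 18 fits it was lower. Among these 18 was the fit with a covariate for the leukocyte score, where 5 members (13.2%, against 11.2%) passed as higher. In that fit 1 member passed as lower (2.63%, against 11.6%), and in no other fit did a member do so. DESeq2 called 2 members as higher (Isg20 and Ifi27, 5.26%), where it called 4.8% of all genes as higher and 11.0% in either direction. Limma-voom with sample weights called those 2 and Usp18 as higher (7.89%), where it called 2.98% of all genes as higher and 5.74% in either direction.

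The direction was shared by most of the set. The log2 fold change of Arf6-null over wild type was above 0 in 35 of 38 members (92.1%), against 47.2% of all tested genes. The count was 32 under upper-quartile scaling, 30 with a covariate for the leukocyte score and 30 to 37 when 1 library was left out. The median fold change was 0.45 over the members and -0.03 over all genes. The median tumor was higher in Arf6-null than in wild type for 38 of 38 members, as it was for 48.6% of all genes. Oas2, Ifi27l2a and Sp100 had fold changes below 0 (-0.10, -0.13 and -0.39). These fold changes compare mean counts, in which the highest tumors weigh most, and the median difference of mean log2 CPM, in which all tumors weigh alike, was 0.83. The members respond to one pathway and were measured in the same tumors, so they are not independent of each other, and these shares are descriptions without a test.

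**Figure D2:**
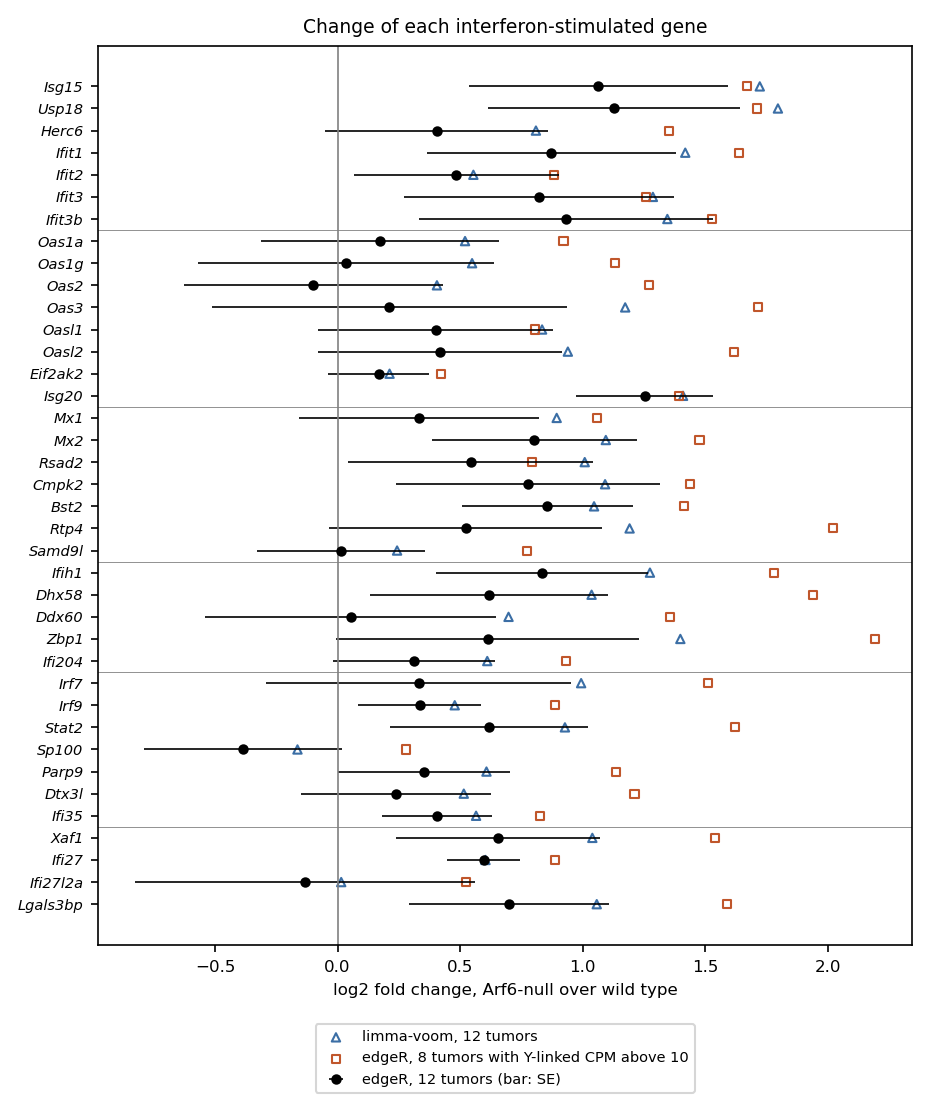
Log2 fold change (Arf6-null over wild type) of each of the 38 genes, grouped by role. Filled circles with SE bars are edgeR over 12 tumors, triangles limma-voom with sample weights over 12 tumors, and squares edgeR over the 8 tumors with Y-linked expression above 10 CPM. Circles lie above 0 for 35 genes and squares for 38, and the median is 0.45 for circles and 1.35 for squares.

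The spread between tumors was larger in wild type for every member. The SD of log2 CPM was larger among wild-type than among Arf6-null tumors for 38 of 38 members, against 57.8% of all tested genes, and more than 2 times as large for 28 members (73.7% against 12%). The median SD of a member was 1.11 in wild type and 0.42 in Arf6-null, while over all genes it was 0.36 and 0.34. In wild type 25 members (65.8%) had an SD above 1, and in Arf6-null only Ifi27l2a did; among all genes the shares were 14% and 11.6%. Put as a ratio, the highest wild-type tumor exceeded the lowest by a median of 6.51-fold over the members, and the highest Arf6-null tumor exceeded the lowest by 2.18-fold. Medians over all genes were 1.95-fold and 1.87-fold.

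**Figure D3:**
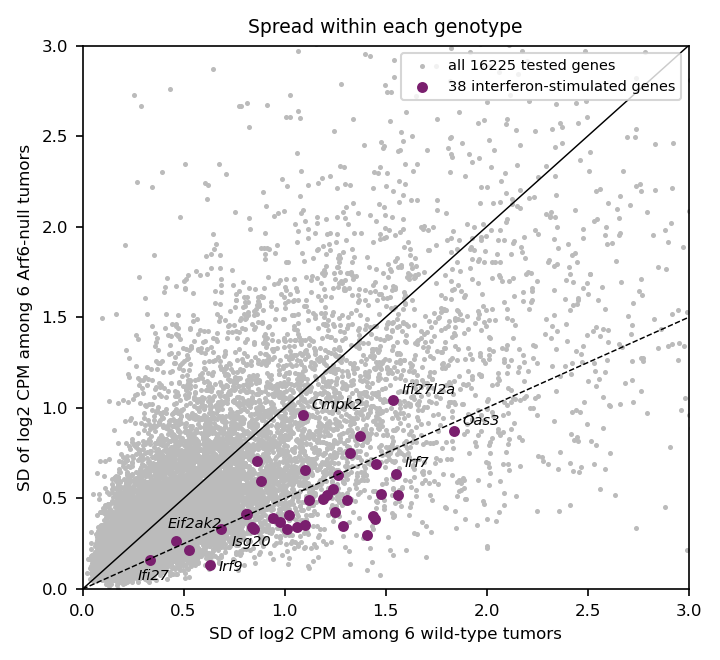
SD of log2 CPM among the 6 wild-type tumors (horizontal) and among the 6 Arf6-null tumors (vertical) for all tested genes (grey) and the 38 interferon-stimulated genes (purple). The solid line marks equal SD and the dashed line an SD 2 times as large in wild type; both axes end at 3, and 90 tested genes lie beyond. All 38 genes lie below the solid line.

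The same tumors were high or low in gene after gene. Wild-type replicates 5 and 6 were the highest pair of wild type for 34 of 38 members (89.5%), which held for 12.4% of all genes. Replicates 1 and 4 were the lowest pair for 25 members (65.8%, against 7.1%). Replicate 1 was the lowest wild-type tumor for 23 members and replicate 4 for 12. At least 3 wild-type tumors lay below the lowest Arf6-null tumor for 32 members (84.2%, against 19.7%), and at least 1 wild-type tumor lay above the highest Arf6-null tumor for 22 (57.9%, close to the 56.6% of all genes). Among Arf6-null tumors, replicate 6 was the highest for 19 members and replicate 4 for 13, and replicate 1 was the lowest for 18. The genotype ranges did not overlap for 1 member, Isg20 (2.63%, against 1.15% of all genes with every Arf6-null tumor above every wild-type tumor).

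**Figure D4:**
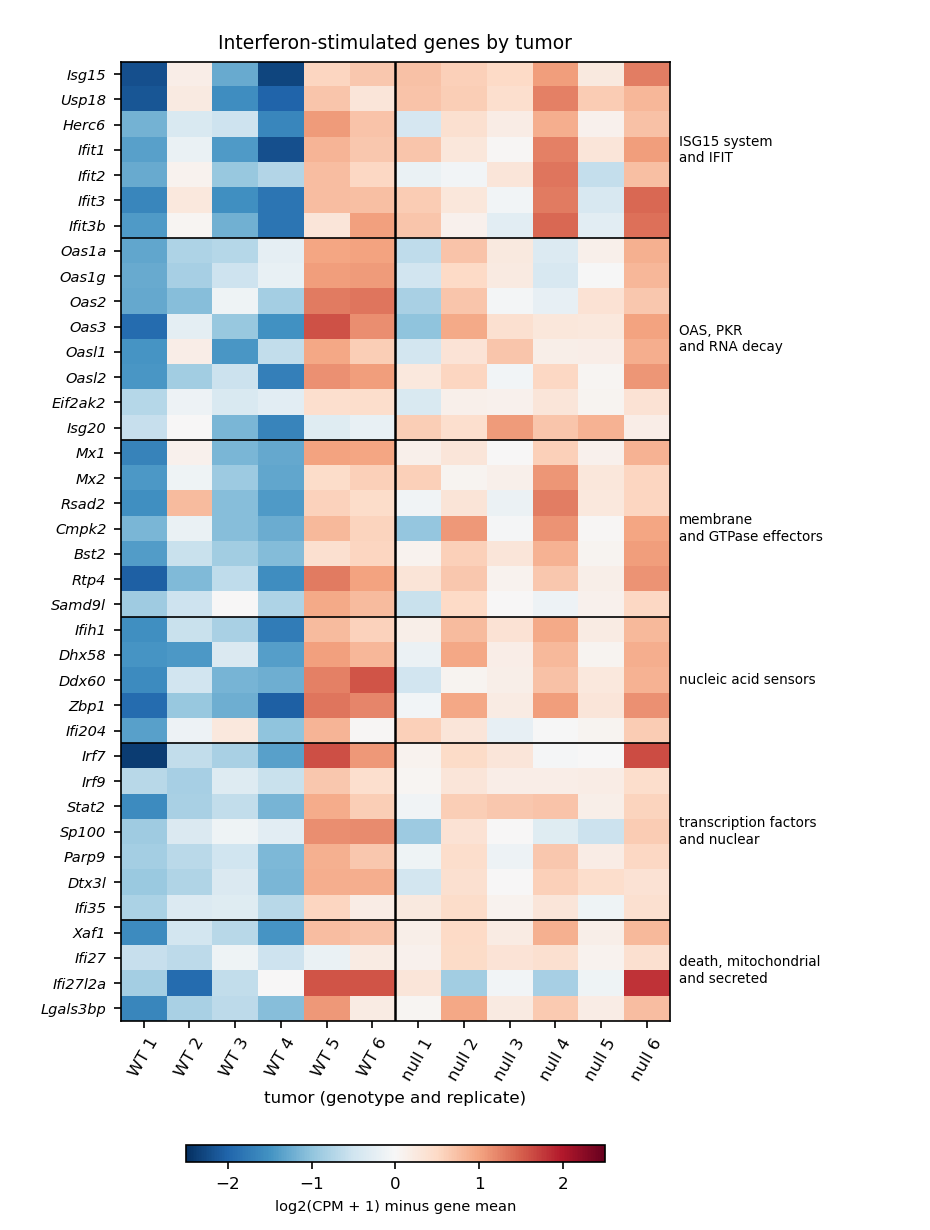
Level of each of the 38 genes (rows, grouped by role) in each of the 12 tumors (columns), as log2(CPM + 1) minus the mean of the gene over all tumors. Blue is below and red above that mean; wild-type tumors 1 to 4 are mostly blue, and wild-type tumors 5 and 6 are red in rows where several Arf6-null tumors are paler.

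The ISG15 system and the IFIT family had the largest median log2 fold change of the 6 role groups, 0.87, with all 7 genes above 0 (0.40 to 1.13). Isg15 encodes a ubiquitin-like protein that is attached to other proteins, Herc6 the ligase that attaches it in mice, and Usp18 the protease that removes it and also restrains the interferon receptor. Usp18 (chr6:121245906-121270917) ranged from 3.82 to 33.4 CPM in wild type (median 14.97) and from 27.1 to 49.99 CPM in Arf6-null tumors (median 32.8). Of the wild-type tumors 5 lay below the lowest Arf6-null tumor, and only replicate 5 reached its range. The log2 fold change of Usp18 was 1.13 ± 0.52 (SE, edgeR adjusted p = 0.211), and limma-voom gave 1.80 ± 0.44 with an adjusted p of 0.0411. Isg15 (chr4:156199424-156200818) ranged from 5.46 to 49.5 CPM in wild type (median 23.2) and from 36.2 to 75.9 CPM in Arf6-null tumors (median 49.2). Its 2 lowest values, 5.88 and 5.46 CPM, came from wild-type replicates 1 and 4, and its log2 fold change was 1.06 ± 0.53 (edgeR adjusted p = 0.245).

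The IFIT proteins bind RNA that lacks the marks of host messages. Ifit1 (chr19:34640871-34650009) ranged from 6.15 to 57.9 CPM in wild type (median 19.9) and from 32.04 to 77.1 CPM in Arf6-null tumors (median 45.4). The lowest Arf6-null tumor exceeded wild-type replicates 1 to 4, and the log2 fold change was 0.87 ± 0.51 (edgeR adjusted p = 0.322). Ifit2, Ifit3 and Ifit3b had fold changes of 0.48, 0.82 and 0.93, with ranges that overlapped, and Ifit3b was the least expressed of the family (1.38 to 16.2 CPM in wild type, 6.01 to 21.9 CPM in Arf6-null). In none of the 4 IFIT genes did a wild-type tumor exceed the highest Arf6-null tumor. Herc6, at 5.46 to 41.1 CPM in wild type and 14.1 to 36.4 CPM in Arf6-null, was the only gene of the group in which one did.

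Genes of RNA decay and translation control showed the smallest median fold change, 0.19, with Isg20 as the exception. Isg20 encodes an exonuclease that degrades single-stranded RNA. Its level (chr7:78913424-78920396) ran from 6.51 to 22.7 CPM in wild type (median 16.4) and from 25.3 to 48.3 CPM in Arf6-null tumors (median 35.9). Every Arf6-null tumor was above every wild-type tumor. Means were 15.2 ± 6.18 and 36.3 ± 8.17 CPM (SD, n = 6 each), and edgeR gave an adjusted p of 0.0544 for a log2 fold change of 1.25 ± 0.28 (SE). Leaving out 1 library at a time gave adjusted p-values from 0.0322 to 0.108, below the threshold without wild-type replicate 2, wild-type replicate 5 or Arf6-null replicate 6. The tumors that were highest in other members were not the highest here: wild-type replicates 5 and 6 stood at 18.1 and 19.7 CPM, below replicate 2, and Arf6-null replicate 6 was the lowest of its genotype.

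The OAS enzymes make short oligoadenylates that switch on the nuclease RNase L, and Eif2ak2 encodes PKR, a kinase that stops translation when it meets double-stranded RNA. Oas3 had the widest wild-type range of all members, 26.8-fold between 0.676 and 18.1 CPM, and ran from 2.16 to 11.9 CPM in Arf6-null. Both wild-type replicates 5 and 6 exceeded the highest Arf6-null tumor in Oas1a, Oas1g, Oas2, Oas3 and Eif2ak2. Fold changes of these 5 genes lay between -0.10 and 0.21. Oasl1 and Oasl2 are relatives of the OAS enzymes, and Oasl1 restrains translation of the interferon regulator IRF7. Oasl2 (chr5:114896936-114912234) ranged from 21.6 to 162 CPM in wild type (median 44.9) and from 69.6 to 158 CPM in Arf6-null tumors (median 97.0), with replicates 1 to 4 of wild type below all Arf6-null tumors and a log2 fold change of 0.42 ± 0.50 (edgeR adjusted p = 0.647). Oasl1 ranged from 2.58 to 18.4 CPM in wild type (median 7.84) and from 6.28 to 17.7 CPM in Arf6-null (median 10.9), and its log2 fold change was 0.40 ± 0.48 (edgeR adjusted p = 0.649). Eif2ak2 varied least of the group in wild type, with an SD of 0.46 on the log2 scale.

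Membrane and GTPase effectors, which act on viral particles or on membranes, had fold changes above 0 in 7 of 7 genes (median 0.54). Bst2 encodes tetherin, which holds budding virions at the cell surface. It ranged from 27.0 to 106.8 CPM in wild type (median 44.5) and from 76.2 to 151 CPM in Arf6-null tumors (median 100.7). Wild-type replicates 1 to 4 lay below all Arf6-null tumors, and replicates 5 and 6 lay inside their range. The log2 fold change of Bst2 was 0.86 ± 0.35 (edgeR adjusted p = 0.168). Mx2, one of the dynamin-like Mx GTPases, ranged from 2.82 to 14.6 CPM in wild type (median 6.504) and from 9.84 to 21.3 CPM in Arf6-null (median 12.8), with a log2 fold change of 0.80 ± 0.42 (edgeR adjusted p = 0.269). GENCODE M21 annotates Mx2 as a polymorphic pseudogene, and many inbred mouse strains carry defective Mx alleles.

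Cmpk2, a mitochondrial nucleotide kinase gene beside Rsad2, ranged from 2.10 to 11.9 CPM in wild type (median 4.02) and from 2.76 to 14.9 CPM in Arf6-null (median 10.03). It was the one gene of the effector group whose spread in Arf6-null tumors, an SD of 0.96, came near the wild-type SD of 1.09, and its log2 fold change was 0.78 ± 0.54 (edgeR adjusted p = 0.405). Rsad2 encodes viperin, an enzyme that makes a chain-terminating nucleotide, and was highest in wild-type replicate 2 (18.03 CPM) among wild-type tumors and in Arf6-null replicate 4 (25.8 CPM) among all. Rtp4, which restrains flaviviruses, spanned 6.48 to 75.4 CPM in wild type and 32.1 to 66.4 CPM in Arf6-null. Mx1 and Samd9l had fold changes of 0.33 and 0.01, and in both genes wild-type replicates 5 and 6 lay above every Arf6-null tumor.

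Nucleic acid sensors, which detect RNA or DNA in the cell and whose own genes are induced by interferon, had a median fold change of 0.61, with 5 of 5 genes above 0. Ifih1 encodes MDA5, a receptor for long double-stranded RNA. It ranged from 7.99 to 51.0 CPM in wild type (median 17.9) and from 32.1 to 56.9 CPM in Arf6-null tumors (median 44.2), and its log2 fold change was 0.83 ± 0.43 (edgeR adjusted p = 0.268). Wild-type replicates 1 to 4 were below all Arf6-null tumors. Dhx58 encodes LGP2, a relative of MDA5 that modulates it, and ranged from 15.5 to 92.2 CPM in wild type (median 25.5) and from 40.4 to 88.7 CPM in Arf6-null (median 65.2), with a log2 fold change of 0.62 ± 0.49 (edgeR adjusted p = 0.467). Zbp1, a sensor of left-handed nucleic acid that can start necroptosis, ranged from 8.35 to 95.9 CPM in wild type (median 17.2) and from 35.6 to 83.3 CPM in Arf6-null (median 60.3), with a log2 fold change of 0.61 ± 0.62 (edgeR adjusted p = 0.583). In Zbp1 and in the helicase gene Ddx60, wild-type replicates 5 and 6 exceeded all Arf6-null tumors while replicates 1, 3 and 4 stayed below all of them. Ifi204, of the family of DNA-binding IFI200 proteins, had a fold change of 0.31 and the smallest wild-type spread of the group (SD 0.84).

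Transcription factors and nuclear proteins of the response had a median fold change of 0.33. Ifi35, which encodes a leucine zipper protein, ranged from 20.7 to 53.5 CPM in wild type (median 29.0) and from 33.5 to 50.1 CPM in Arf6-null tumors (median 44.2), with a log2 fold change of 0.41 ± 0.22 (edgeR adjusted p = 0.292). Stat2 and Irf9 encode the subunits that make ISGF3 distinct from other STAT complexes. Stat2 ranged from 27.0 to 157.5 CPM in wild type (median 50.3) and from 77.9 to 137 CPM in Arf6-null (median 124.7), with a log2 fold change of 0.62 ± 0.40 (edgeR adjusted p = 0.378). Irf9 was the most even member in Arf6-null tumors, from 56.5 to 73.9 CPM (median 61.5, SD 0.13 on the log2 scale), and ranged from 29.9 to 87.2 CPM in wild type (median 40.1), with a log2 fold change of 0.33 ± 0.25 (edgeR adjusted p = 0.447). Both genes were lower in wild-type replicates 1 to 4 than in any Arf6-null tumor.

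Irf7, the factor that amplifies interferon alpha production, spanned 17.7-fold in wild type, from 8.59 to 152 CPM. In Arf6-null tumors it lay between 47.7 and 68.5 CPM in replicates 1 to 5 and at 154 CPM in replicate 6. Its log2 fold change was 0.33, and it was -0.04 without Arf6-null replicate 6. Parp9 and Dtx3l, a partner pair in ubiquitin and ADP-ribose signalling, had fold changes of 0.35 and 0.24, and Sp100, a component of nuclear bodies, was the member furthest below 0 (-0.39), with 63.1 and 64.3 CPM in replicates 5 and 6 of wild type, where Arf6-null tumors reached at most 43.3 CPM.

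The last group joins genes of cell death, mitochondria and secretion. Ifi27, which encodes a mitochondrial membrane protein, ranged from 52.4 to 95.05 CPM in wild type (median 65.3) and from 88.5 to 115.1 CPM in Arf6-null tumors (median 107.6). Only wild-type replicate 6 reached the Arf6-null range. Ifi27 was also the member with the smallest wild-type spread (SD 0.34 on the log2 scale), and its log2 fold change was 0.60 ± 0.15 (edgeR adjusted p = 0.0616, 0.0554 to 0.124 when 1 library was left out). DESeq2 gave an adjusted p of 0.00597 and limma-voom 0.0393. Lgals3bp encodes a secreted glycoprotein that binds galectins. It ranged from 101 to 676 CPM in wild type (median 191) and from 327 to 618 CPM in Arf6-null (median 435), with a log2 fold change of 0.70 ± 0.41 (edgeR adjusted p = 0.324). Xaf1, which promotes apoptosis, ranged from 9.54 to 52.0 CPM in wild type (median 20.02) and from 33.5 to 56.4 CPM in Arf6-null (median 39.1), with a log2 fold change of 0.66 ± 0.42 (edgeR adjusted p = 0.365). Ifi27l2a, which lies beside Ifi27, went another way: 44.98 CPM in Arf6-null replicate 6 and 38.2 and 37.8 CPM in wild-type replicates 5 and 6 stood against 2.48 to 15.2 CPM in the other 9 tumors.

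Per kilobase of exon, the scale on which genes can be compared with each other, Lgals3bp was the most abundant member (98.3 CPM per kilobase in wild type and 159 in Arf6-null, means). Bst2 followed with 65.3 and 118, Ifi27 with 46.5 and 70.3 and Isg15 with 33.5 and 70.1. At the other end stood Oas3 with 0.94 and 1.09 and Oas1g with 1.21 and 1.24 CPM per kilobase. The wild-type SD of Lgals3bp and Isg15 was larger than the gap between neighbours in this order, so the order is that of means.

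Several members lie next to each other in the genome (GRCm38). Ifit2, Ifit3, Ifit3b and Ifit1 follow each other on chromosome 19 with gaps of 7.1, 19.2 and 27.5 kb, and Oas2, Oas3, Oas1g and Oas1a on chromosome 5 with gaps of 3.2, 98.5 and 8.6 kb. The pairs Oasl2 and Oasl1 (chromosome 5, 11.0 kb apart), Rsad2 and Cmpk2 (chromosome 12, 12.8 kb), Ifi27 and Ifi27l2a (chromosome 12, 1.9 kb) and Mx1 and Mx2 (chromosome 16, 72.4 kb) are neighbours as well. Of all stretches of 50 bases in the exons of Ifit3, 51.2% occur in Ifit3b, and 57.6% of those of Oas1a occur in Oas1g. Reads from such stretches can be assigned to either copy or dropped, so the levels of Ifit3, Ifit3b, Oas1a and Oas1g are uncertain. Mx1 shared 3.86% of its stretches with Mx2, and Oasl1 and Oasl2 shared 0. Parp9 and Dtx3l overlap by 682 bases on opposite strands, Rtp4 overlaps Masp1 by 525 bases on the opposite strand, and Irf9 overlaps Rnf31 by 123 bases on the same strand. The strand setting of the counting is not given in the sources used here, so reads of such overlaps cannot be assigned with certainty.

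Members with and without the promoter element had overlapping values in these tumors. The 13 genes with an ISRE core in the promoter entry had a median log2 fold change of 0.62 and median SDs of 1.31 in wild type and 0.52 in Arf6-null. The 14 genes with an entry but no match had 0.41, 0.96 and 0.42, and the 11 genes without an entry 0.52, 1.27 and 0.40. These are descriptions without a test. Absence of the letters from the window says nothing about elements elsewhere.

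The ligands at the top of the pathway were close to absent from the reads. Of 20 type I and III interferon genes, 11 had 0 counts in every library and 0 passed the filter on low counts. Ifnb1, the gene of interferon beta, had 2 counts over the wild-type libraries, both in replicate 2, and 49 counts over the Arf6-null libraries. The counts in Arf6-null replicates 1 to 6 were 8, 4, 6, 9, 22 and 0. Relative to all counts this is a ratio of 18.4 (95% Clopper-Pearson interval 4.83 to 156, counting error only), and a count of 0 in a library allows up to 0.0657 to 0.143 CPM, depending on its depth. Fitted without a filter, edgeR gave Ifnb1 an adjusted p of 0.0918 (log2 fold change 3.97 ± 1.03 SE) in a fit that called 0.381% of genes, and DESeq2 gave 0.0149 in a fit that called 11.0%. Wild-type replicates 5 and 6 and Arf6-null replicate 6, the tumors with the highest scores of the 38 genes, had 0 counts of Ifnb1. Ifne, an interferon of epithelia, had 14 counts in wild type and 33 in Arf6-null, and the other 18 genes together had 3 and 10.

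No receptor or kinase gene of the pathway was called as changed. Of 8 genes for interferon receptors and JAK-STAT proteins, 7 were tested and 0 passed the edgeR threshold, with 3 fold changes above 0 and a median of -0.02. Ifnar1 measured 106.1 ± 15.99 CPM (SD) in wild type, against 99.5 ± 7.61 CPM in Arf6-null (n = 6 each), and Ifnar2 68.8 ± 12.2 and 67.7 ± 9.25 CPM. The 2 genes with the smallest p were Il10rb, a receptor chain for type III interferon (41.4 ± 9.17 and 31.9 ± 3.602 CPM, edgeR adjusted p = 0.155), and Jak1 (232 ± 31.1 and 206 ± 6.40 CPM, edgeR adjusted p = 0.294).

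Upstream sensing and feedback genes showed 0 calls as well. Of 18 tested genes that detect nucleic acid or relay that signal to interferon production, 10 had a fold change above 0, with a median of 0.13. Tlr7, an endosomal RNA receptor, had the smallest p of the list (23.5 ± 10.3 and 12.98 ± 5.19 CPM, edgeR adjusted p = 0.159), and Trim25, a ubiquitin ligase of RNA sensing, followed (82.6 ± 16.8 and 99.7 ± 13.7 CPM, edgeR adjusted p = 0.269). Among 9 tested negative regulators 7 were above 0 (median 0.23). Pias1, a SUMO ligase, measured 54.5 ± 5.88 and 45.9 ± 3.89 CPM (edgeR adjusted p = 0.133), and the phosphatase gene Ptpn11 measured 168 ± 28.2 and 138 ± 5.93 CPM (edgeR adjusted p = 0.138).

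A wider list of 49 other interferon-stimulated genes showed the same layout of tumors less sharply. Of 48 tested, 1 passed the edgeR threshold as higher and 0 as lower, 33 had a fold change above 0 (median 0.14), and 41 had a larger SD in wild type (medians 0.81 and 0.47). The called gene was Ifi44l, which is induced by interferon and had 10 counts in all wild-type libraries together. It measured 0.0329 to 0.132 CPM in wild type and 3.11 to 20.3 CPM in Arf6-null tumors, with a log2 fold change of 7.11 ± 0.58 (edgeR adjusted p = 0.000169). Ifi44l did not share the layout of the list, since it was near absent also in the wild-type tumors with the highest member scores. Ifi44, of the same list, ranged from 4.27 to 51.6 CPM in wild type and from 26.5 to 89.4 CPM in Arf6-null. Whether the difference in Ifi44l reflects an interferon response was not tested. The 21 targets of interferon gamma had 0 calls, 19 fold changes above 0 (median 0.47) and median SDs of 1.39 in wild type and 0.82 in Arf6-null. Ido1, a tryptophan-degrading enzyme gene, and Socs1, a feedback inhibitor gene, had the smallest p of that list (edgeR adjusted p = 0.262 and 0.248, log2 fold changes 1.88 ± 0.97 and 0.45 ± 0.22).

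Wild-type replicates 5 and 6, the wild-type tumors highest in the interferon-stimulated genes, were also the highest in leukocyte and macrophage markers, while among wild-type replicates 1 to 4 the order differed. The score of 4 pan-leukocyte genes, all of them tested, measured 7.57 and 7.31 for replicates 5 and 6 of wild type, between 6.09 and 6.38 for replicates 1 to 4, and lay between 6.31 and 7.32 in Arf6-null tumors. Within replicates 1 to 4 it ran opposite to the score of the 38 genes: 6.38, 6.31, 6.16 and 6.09 in replicates 1, 4, 3 and 2, in rising order of the 38 genes. The score of 11 macrophage and monocyte genes, all tested, was 7.70 and 7.76 in the same pair and between 6.28 and 7.07 in the other wild-type tumors, and between 6.24 and 7.30 in Arf6-null. The score of interferon gamma targets was 6.97 and 6.42 in that pair, 3.92 to 4.78 in the other wild-type tumors and 4.77 to 6.86 in Arf6-null. No marker of the first 2 lists had 0 counts in any library. Arf6-null replicate 1, the lowest Arf6-null tumor by the score of the 38 genes, was also the lowest of its genotype in all 3 scores.

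**Figure D5:**
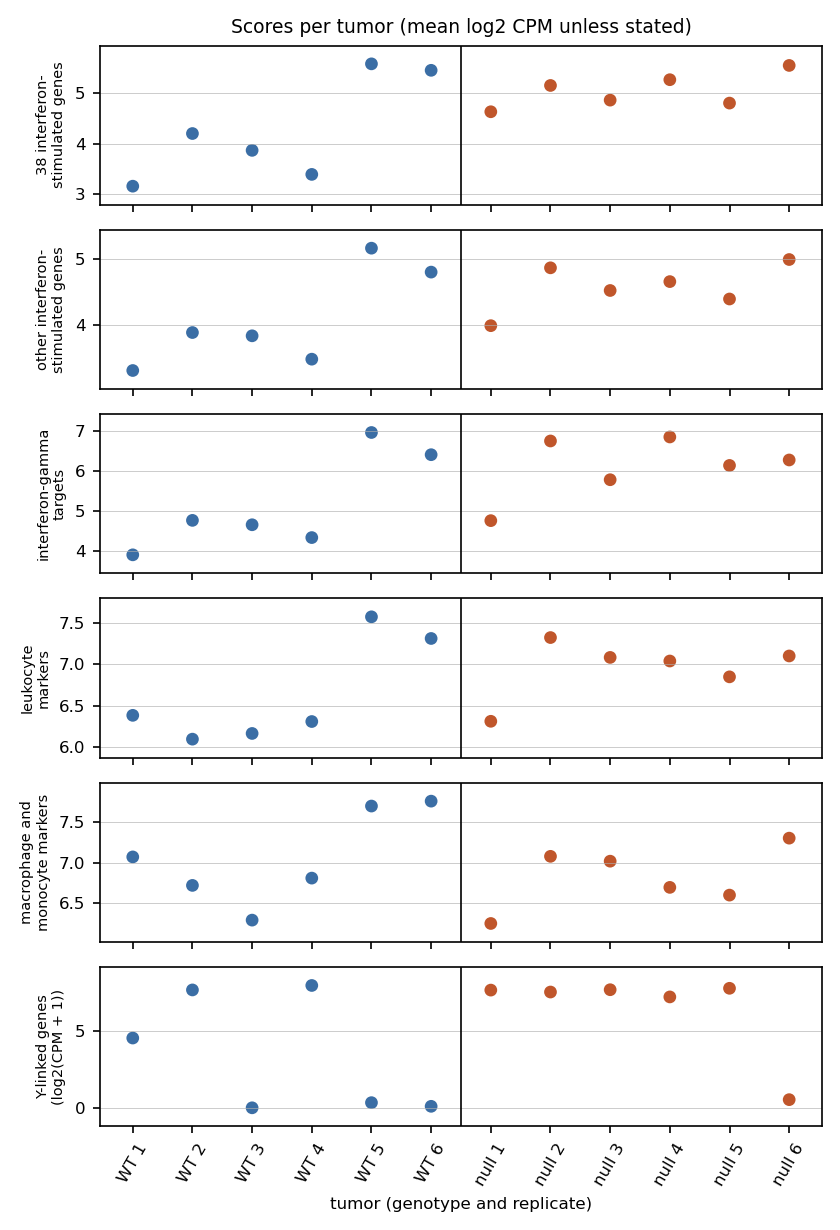
Scores of each tumor (mean log2 CPM of the list; for Y-linked genes log2 of summed CPM + 1) in wild-type tumors 1 to 6 (blue) and Arf6-null tumors 1 to 6 (orange). Wild-type tumors 5 and 6 are the highest wild-type tumors in the upper 5 panels and have almost no Y-linked reads, and Arf6-null tumor 1 is the lowest Arf6-null tumor in those 5 panels.

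Between the genotypes the leukocyte and macrophage scores differed by less than the spread among wild-type tumors. The mean leukocyte score was 6.64 ± 0.64 in wild type and 6.95 ± 0.35 in Arf6-null (SD, n = 6 each), and the mean macrophage score 7.06 ± 0.58 and 6.82 ± 0.38. Leukocyte genes had 0 calls in edgeR, with 2 fold changes above 0 and 2 below. Those with the smallest p were Laptm5 (236 ± 78.3 and 334 ± 117 CPM) and Cd52 (55.8 ± 45.9 and 74.4 ± 24.1 CPM). The defining marker Ptprc measured 122 ± 49.8 and 117 ± 36.2 CPM. Macrophage genes had 0 calls as well, and 9 of 11 had a fold change below 0 (Mrc1 585 ± 401 and 310 ± 100 CPM, Lyz2 593 ± 267 and 344 ± 222 CPM). With the macrophage score as a covariate the median fold change of the 38 genes was 0.95, with the leukocyte score, an alternative added after the data were seen, it was 0.34, and 0 members were called in either fit, which called 0.45% and 0.703% of all genes. Plasmacytoid dendritic cells are the classical producers of interferon alpha. Of their 6 markers 5 were tested, all 5 with a fold change below 0 and 0 called in edgeR. The 2 with the smallest p were Cox6a2 (log2 fold change -4.24 ± 1.17 SE, edgeR adjusted p = 0.0722) and Spib (1.65 ± 0.98 and 0.80 ± 0.79 CPM, edgeR adjusted p = 0.306), and the defining marker Siglech had 622 counts in wild type and 509 in Arf6-null. Cox6a2 also encodes the muscle form of a cytochrome c oxidase subunit, and it measured 23.1, 14.1 and 54.9 CPM in wild-type replicates 3, 4 and 5, 0.364 to 3.43 CPM in the other wild-type tumors and 0.0502 to 1.76 CPM in Arf6-null. The score of this list ran from -0.52 to 2.40 in wild type and from -0.73 to 1.87 in Arf6-null, and without Cox6a2 from -0.34 to 2.33 and from -0.92 to 2.33. The same 3 wild-type tumors were the highest in skeletal muscle markers, with scores of 7.33, 7.01 and 7.16, against 0.76 to 3.29 in the other wild-type tumors and -1.02 to 2.26 in Arf6-null, and Pvalb, a calcium buffer of fast muscle, was called lower (log2 fold change -7.22 ± 1.44, edgeR adjusted p = 0.0392). Without these 3 tumors the median log2 fold change of the 38 genes was 0.54, with 0 members and 0.206% of all genes called. Markers of T cells (6 tested), NK and cytotoxic cells (5), neutrophils (4), fibroblasts (5) and endothelium (4) had 0 calls in edgeR. At an unadjusted p under 0.05, 2 fibroblast and 2 endothelial genes were lower in Arf6-null, and all 5 fibroblast genes had fold changes below 0. In the other lists directions were mixed, with fold changes above 0 in 2 of 6 T cell, 2 of 5 NK and cytotoxic, 2 of 4 neutrophil and 1 of 4 endothelial genes. The genes with the smallest p had log2 fold changes of -0.82 (Pdgfra) and -1.33 (Col1a2) for fibroblasts, -1.28 (Tie1) and -1.14 (Kdr) for endothelium, -1.44 (Cd4) and -0.60 (Cd3e) for T cells, -0.61 (Klrb1c) and -0.56 (Ncr1) for NK cells, and 0.65 (Cxcr2) and -0.10 (Csf3r) for neutrophils. The B cell gene tested was Cd79b (-0.93) and the keratinocyte genes Krt1 (0.94) and Krt10 (-0.15), with 0 calls. The part of any of these cells in the result was not tested.

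Y-linked expression divides the wild-type tumors in a related way, since replicates 3, 5 and 6 had almost none. The comparison was therefore repeated in the 8 tumors with more than 10 CPM of Y-linked genes, wild-type replicates 1, 2 and 4 and Arf6-null replicates 1 to 5, an alternative chosen after the data were seen. This choice left out wild-type replicates 5 and 6 and Arf6-null replicate 6, the tumors with the highest scores of the 38 genes (5.59, 5.46 and 5.55). The wild-type tumors it kept had scores of 3.16, 4.20 and 3.39. The lowest of these, replicate 1, had 22.3 CPM of Y-linked genes, against 147.5 to 248 CPM in the other tumors kept. Its place in the subset thus rests on the cut at 10 CPM. A larger difference in the members thus follows in part from the choice, and the calls and p-values below are descriptions only. In these 8 tumors the median log2 fold change was 1.35, with 38 of 38 above 0. Of the members edgeR called 8 as higher (21.1%), in a fit that called 0.431% of genes as higher and 1.18% in either direction. They were Irf9, Stat2, Oasl2, Dhx58, Zbp1, Rtp4, Lgals3bp and Ifi27. Irf9 measured 33.0, 29.9 and 36.8 CPM in the 3 wild-type tumors and 56.5 to 67.0 CPM in the 5 Arf6-null tumors (log2 fold change 0.89 ± 0.11 SE, edgeR adjusted p = 0.0163). Rtp4 measured 6.48, 13.3 and 9.60 CPM against 32.1 to 48.4 CPM (2.02 ± 0.27, edgeR adjusted p = 0.0235), and Zbp1 9.18, 18.9 and 8.35 CPM against 35.6 to 78.0 CPM (2.19 ± 0.39, edgeR adjusted p = 0.0460). Every Arf6-null tumor of these 8 lay above every wild-type tumor for 21 of the 38 members (55.3%), and for 6.77% of all tested genes.

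The same 8 tumors do not include the wild-type pair with the highest leukocyte scores, and their wild-type leukocyte scores (6.38, 6.09 and 6.31) lay at or below most of the Arf6-null scores (6.31 to 7.32). The median wild-type SD of the members fell to 0.66 in this subset, from 1.11 over all wild-type tumors. With Y-linked expression as a covariate over all 12 tumors, the median fold change was 1.12, with 38 of 38 above 0. In that fit edgeR called 1 member as higher, Ifi27 (2.63%, adjusted p = 0.0496), where it called 0.0863% of all genes as higher and 0.185% in either direction. The remaining 4 tumors, wild-type replicates 3, 5 and 6 and Arf6-null replicate 6, include a single Arf6-null tumor and allow no test. Their scores of the 38 genes were 3.87, 5.59, 5.46 and 5.55. Whether sex, immune cell content or another property of the tumors accounts for the division was not tested.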

How the data were processed

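Bulk RNA was sequenced from 12 tumors, 6 per genotype. Per the labels' protocols, a Direct-zol kit was used for RNA and the TruSeq Stranded mRNA kit for libraries. The submitters' processing notes name STAR 2.7.3a, featureCounts 1.6.3, DESeq2 1.26.0 and the build GRCm38 (mm10). How the counter treated strand and multi-mapping reads, and which annotation it used, is not stated in the labels. The authors deposited unnormalized whole-number counts for 55487 Ensembl gene identifiers. Columns were matched to samples by the names in the titles, and groups were taken from the genotype label.

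Symbols, exons and coordinates came from GENCODE M21 (55141 identifiers matched), and promoters from RefSeq on GRCm38.p6. Genes were filtered with filterByExpr at a minimum count of 10, scaled with TMM and compared with the robust quasi-likelihood F test of edgeR 4.0.16 in R 4.3.3, with Benjamini-Hochberg adjustment over 16225 genes and a threshold of 0.05. Log2 CPM used a prior count of 2, and standard errors came from the F statistic. The code was tested on simulated counts. As alternatives served upper-quartile and median-of-ratios scaling, DESeq2 1.42.0, limma-voom 3.58.1 with sample weights, no filter, at least 1 CPM in 6 libraries, a threshold of 0.1, Y-linked, muscle, macrophage and leukocyte covariates, each library left out in turn, wild-type replicates 3, 4 and 5 left out, and the 8 tumors with Y-linked CPM above 10. Promoter windows shared by paralogs and shared exonic stretches of 50 bases stood in for a protein comparison, which was not made because no protein sequences were used here.

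The members, lists and alternatives were chosen with earlier results of these data known. Full statistics were given for the 3 members of each role group with the smallest p, since none passed the threshold, and from other lists the genes past it or else the 2 with the smallest p were named, Y-linked and melanocyte genes apart, beside defining markers. Intervals and limits on counts of 0 cover counting error only. One gene is not reported here.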

Additional observations from a re-analysis of the deposited data

Results flagged for a closer look

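Values that stood apart within a genotype were looked for in 126 sets of 6 tumors, each a gene or a score in one genotype, by the gap between an end value and its neighbour relative to the range (Dixon's 95% critical value for 6 samples). Chance marks about 1 set in 20. Irf7 in Arf6-null replicate 6 was marked, at 7.27 on the log2(CPM + 1) scale, where the other 5 Arf6-null tumors lay between 5.605 and 6.12. The score of the cell death, mitochondrial and secreted genes was marked in the same tumor, at 6.78 against 5.88 to 6.06 in the other 5. Oas3 was marked in Arf6-null replicate 1, at 1.66 on the log2(CPM + 1) scale, where the other 5 lay between 2.94 and 3.69.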

How the results depend on the processing

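Over all genes, 186 were called, and 25 to 766 when 1 library was left out. The count was 2215 with DESeq2, 931 with limma-voom, 1359 at a threshold of 0.1, 30 with the Y-linked covariate, 15 with the muscle covariate, 73 with the macrophage covariate, 114 with the leukocyte covariate and 35 without wild-type replicates 3, 4 and 5. Of the 38 members 0 were called, and 0 to 1 when 1 library was left out (Isg20). The count was 2 with DESeq2 or at a threshold of 0.1, 3 with limma-voom, 1 with the Y-linked covariate and 8 in the tumors with Y-linked CPM above 10. The cause of these differences was not tested. The median log2 fold change of the members, 0.45, was 1.35 in the Y-linked subset, 0.34 to 1.12 in the other alternatives and 0.31 to 0.79 when 1 library was left out. The difference in score, 0.77, was 1.36 in the Y-linked subset, 0.72 to 0.78 in the other alternatives and 0.55 to 1.03 when 1 library was left out. The median wild-type SD, 1.11, was 0.66 in the Y-linked subset and 0.997 to 1.21 when 1 library was left out. Ranges did not overlap for 1 member (1.15% of all genes) and for 21 in the Y-linked subset (6.77% of all genes). The count was 2 without wild-type replicates 3, 4 and 5, and 1 to 2 when 1 library was left out. For these smaller sets the share over all genes was not taken, and ranges of fewer tumors overlap less readily, so these counts cannot be weighed.

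Of 912 fold changes of a member in an alternative, 840 kept direction and side of the threshold, 17 passed the threshold and 55 changed sign, the latter in 9 members. Upper-quartile scaling turned Oas1g (-0.0124), Samd9l (-0.0351) and Ddx60 (-0.00106), and the 1 CPM filter turned Samd9l (-0.000325). Without wild-type replicates 3, 4 and 5, Ddx60 was -0.0899, Oas2 0.0354 and Ifi27l2a 0.0430. Oas2 was 0.41 with limma-voom, 0.89 with the Y-linked covariate, 0.59 with the muscle covariate, 0.40 with the macrophage covariate and 1.27 in the Y-linked subset. Ifi27l2a was 0.0147, 0.64, 0.30, 0.57 and 0.52 in the same order. Sp100 was 0.14 with the Y-linked covariate, 0.00498 with the muscle covariate and 0.28 in the Y-linked subset. With the leukocyte covariate Oas1a was -0.0866, Oas1g -0.16, Oas3 -0.0210, Samd9l -0.20 and Ddx60 -0.0119. When 1 library was left out, ranges crossed 0 for Oas1a (-0.0134 to 0.48), Oas1g (-0.20 to 0.42), Oas2 (-0.29 to 0.27), Oas3 (-0.0252 to 0.82), Samd9l (-0.13 to 0.26), Ddx60 (-0.15 to 0.59), Irf7 (-0.0424 to 0.91) and Ifi27l2a (-0.79 to 0.26).

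No paired analysis was possible because, although the submitters call the tumors matched, no label ties a wild-type tumor to an Arf6-null tumor. Low counts limit Oas1g, with 11 counts in its lowest library, and Oas3, with 17.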
